A study of Homo sapiens with 6 samples.

Results

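The Wnt genes described here were 9 of the 41471 gene symbols in the knockdown count table and of the 34157 in the Reb count table. They were chosen by symbol from the pathway's ligands (WNT5A, WNT5B), receptors (FZD2, FZD6, LRP6), a secreted inhibitor (DKK1), and its intracellular and nuclear parts and targets (CTNNB1, TCF7L2, AXIN2). All 9 symbols were found in both tables. The RNA came from MDA-MB-231, an established human triple-negative breast cancer cell line. In the knockdown experiment, cells carrying a scramble-shRNA were compared with cells carrying either of 2 hairpins against the atypical cyclin-dependent kinase CDK16, named CDK16-sh1 and CDK16-sh2. In the Reb experiment, cells were kept for 48 h in DMSO, or in 1 μM or 5 μM Reb (rebastinib, a small kinase inhibitor that the study used against CDK16). Each condition had 1 library, so no difference has a replicate check, and each hairpin line was a sorted pool of infected cells. In RNA from a whole culture, fewer cells expressing a gene and less RNA per cell cannot be told apart.

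Wnt proteins are secreted lipid-modified ligands that bind Frizzled receptors. With the co-receptor LRP5 or LRP6, this binding keeps a destruction complex built on Axin from breaking down β-catenin, which then enters the nucleus and acts with TCF and LEF factors on target genes. Other ligands, WNT5A among them, act largely without β-catenin, through the planar cell polarity and calcium branches, which bear on cell shape and migration.

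DKK1 and CTNNB1 were the members whose RNA lay furthest apart in direction at 5 μM Reb among those with a promoter entry, so the 250 bases before their RefSeq start sites are shown. Both come from RefSeq on GRCh38.p14, where 5 of the 9 members had an entry, and both lie on the plus strand. Capitals mark matches to 3 letter strings, which are TATAAA on the sense strand, and CTTTGAA (the core bound by TCF and LEF factors) and GGGCGG (the core bound by SP1) on either strand.
DKK1, chr10:52314031-52314280: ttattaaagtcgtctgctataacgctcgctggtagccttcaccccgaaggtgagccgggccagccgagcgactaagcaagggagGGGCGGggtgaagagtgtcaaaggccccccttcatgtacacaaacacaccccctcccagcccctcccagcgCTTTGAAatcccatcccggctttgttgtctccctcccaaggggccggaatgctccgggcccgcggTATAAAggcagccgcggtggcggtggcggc
CTNNB1, chr3:41199255-41199504: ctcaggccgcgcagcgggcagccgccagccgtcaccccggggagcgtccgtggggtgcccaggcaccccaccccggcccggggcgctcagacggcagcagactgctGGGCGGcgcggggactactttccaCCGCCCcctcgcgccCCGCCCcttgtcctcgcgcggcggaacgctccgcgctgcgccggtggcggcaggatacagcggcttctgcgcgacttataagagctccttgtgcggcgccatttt
The DKK1 stretch held TATAAA 30 bases, CTTTGAA 95 bases and GGGCGG 166 bases before the start, and its GC content was 62.8%. The CTNNB1 stretch held 3 GGGCGG matches, 144, 120 and 105 bases before the start, no TATAAA or CTTTGAA, and a GC content of 74.4%. Of 35116 RefSeq promoter entries, 6.8% held TATAAA, 3.8% held CTTTGAA and 42.6% held GGGCGG. The related string CTTTGAT, found in 2.26% of entries, was in no entry of the 5 members. Other forms of that core were not searched for or marked, such as CTTTGTT, which the DKK1 stretch also holds. None of the marked matches overlapped another, and a match is a string of letters, not a measured binding site.

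The libraries held between 25838443 and 50303269 counted reads. Mitochondrial genes took 16.2% of them in CDK16-sh2 and 16.4% at 5 μM Reb, against 7.19% to 11.3% in the other 4 libraries, and the part of this in the values below was not tested. VIM and CD44, which mark this mesenchymal-like line, stood at 177 to 833 and 31.8 to 81.0 RPKM (reads scaled by gene length and library size). ESR1, PGR and CDH1, which the line lacks, had at most 53 reads in any library, while ERBB2 (2.56 to 6.54 RPKM) and EPCAM (1.55 to 4.30 RPKM) were present at low levels. CDK16, the targeted gene, had 3223 reads in scramble-shRNA, 1360 in CDK16-sh1 and 846 in CDK16-sh2, a log2 fold change of -1.52 and -1.82. Under Reb its RNA differed little, by -0.14 at 1 μM and 0.27 at 5 μM on the log2 scale, the latter being -0.42 when scaled by library totals.

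Levels are compared between genes in RPKM, with 95% exact Poisson intervals. Intervals throughout cover counting error only, since each condition had 1 library. No molecular identifiers are named for the reads, so repeat reads of 1 molecule could make these intervals too narrow. In scramble-shRNA, DKK1 stood highest at 72.9 RPKM, followed by CTNNB1 (28.8), FZD2 (20.0), FZD6 (16.2) and WNT5B (10.6). TCF7L2 (4.79) and LRP6 (4.44) came next, with overlapping intervals, and WNT5A (1.05) and AXIN2 (1.04) were lowest, again with overlapping intervals. In DMSO the order began with FZD6 (31.7 RPKM), DKK1 (23.1), CTNNB1 (17.9) and FZD2 (10.3). TCF7L2 (4.41) and LRP6 (4.24) again could not be separated, and WNT5B (2.81), AXIN2 (1.63) and WNT5A (0.0581) closed it. At 5 μM Reb the order had changed, with CTNNB1 (48.2 RPKM) and LRP6 (12.4) first and second, and with AXIN2 (3.85), FZD2 (3.27) and DKK1 (3.01) close together, each overlapping its neighbour.

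**Figure D1:**
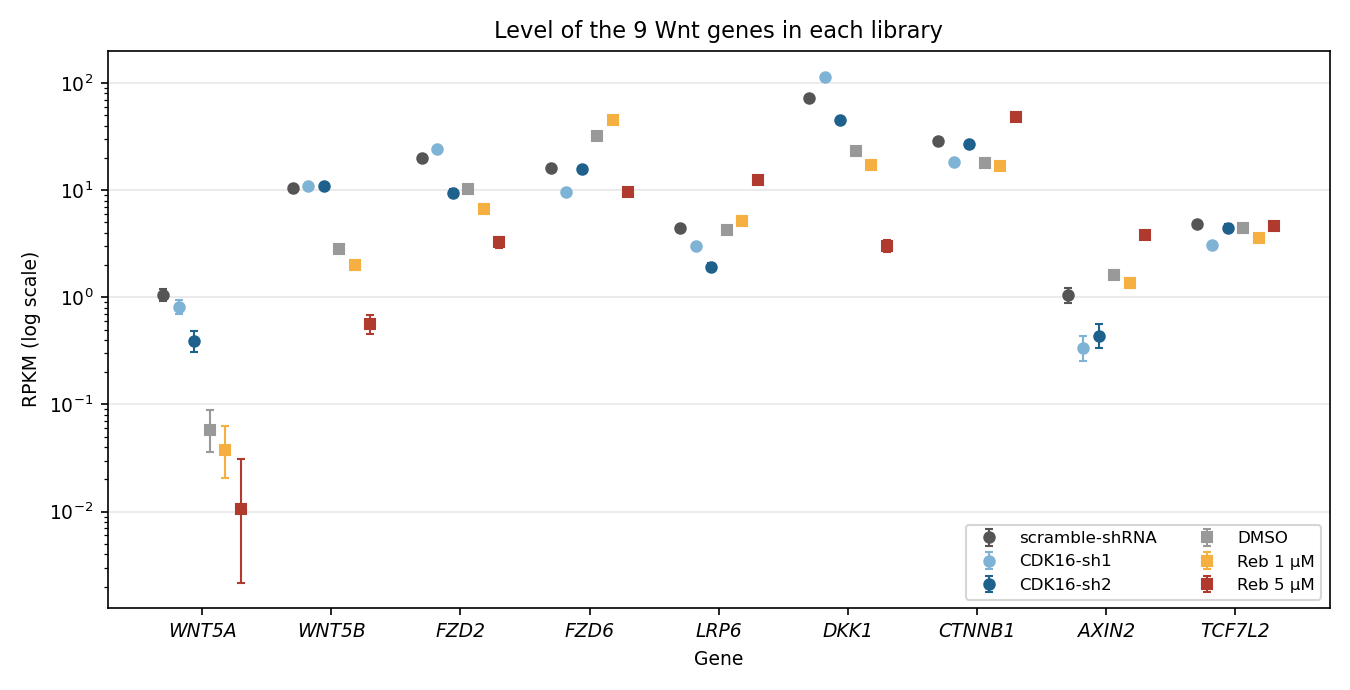
Level of each of the 9 Wnt genes in the 6 libraries, in RPKM on a log axis. Circles are the knockdown libraries, squares the Reb libraries, and bars 95% counting intervals from 1 library each. DKK1 falls from 23.1 RPKM in DMSO to 3.01 at 5 μM Reb, while LRP6 goes from 4.24 to 12.4, and WNT5A lies at or below 0.0581 in the Reb libraries.

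Differences from here on are log2 fold changes of scaled CPM, the read count brought to a common library size by TMM, with 2 added as a prior count, each treated library against the control of its own experiment. A gene past 2-fold is called, the fold threshold of the study's methods, with no test behind it. The 2 hairpins share 1 control library and so do the 2 doses, so each comparison's values are given side by side. In CDK16-sh1, 1 of 9 members was at least 2-fold lower, against 6.86% of the 15295 genes measured, and 0 were 2-fold higher, against 4.33%. In CDK16-sh2, 3 of 9 were 2-fold lower, against 7.62% of genes, and 0 higher, against 2.20%. Once a trend on gene length and expression was removed, these 3, WNT5A (-0.92), LRP6 (-0.82) and AXIN2 (-0.81), were all inside 2-fold. AXIN2 was the member past 2-fold with both hairpins, as were 1.44% of all genes in the same direction. The median log2 fold change of the 9 members was -0.54 with CDK16-sh1 and -0.48 with CDK16-sh2, where that of all genes was -0.002 and 0.018. The CDK16-sh1 median was -0.27 with a trend on GC content and length removed and -0.25 with a trend on length and expression removed. The CDK16-sh2 median did not shrink in the same way, at -0.45 and -0.69 under these settings. At 1 μM Reb, 0 of the 8 members with enough reads passed 2-fold in either direction, against 1.92% of 15655 genes lower and 1.28% higher. At 5 μM, 3 of 8 were 2-fold lower, against 27.2% of all genes, and 3 of 8 were 2-fold higher, against 23.6%. With so many genes past 2-fold at 5 μM, these counts alone do not set the members apart.

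**Figure D2:**
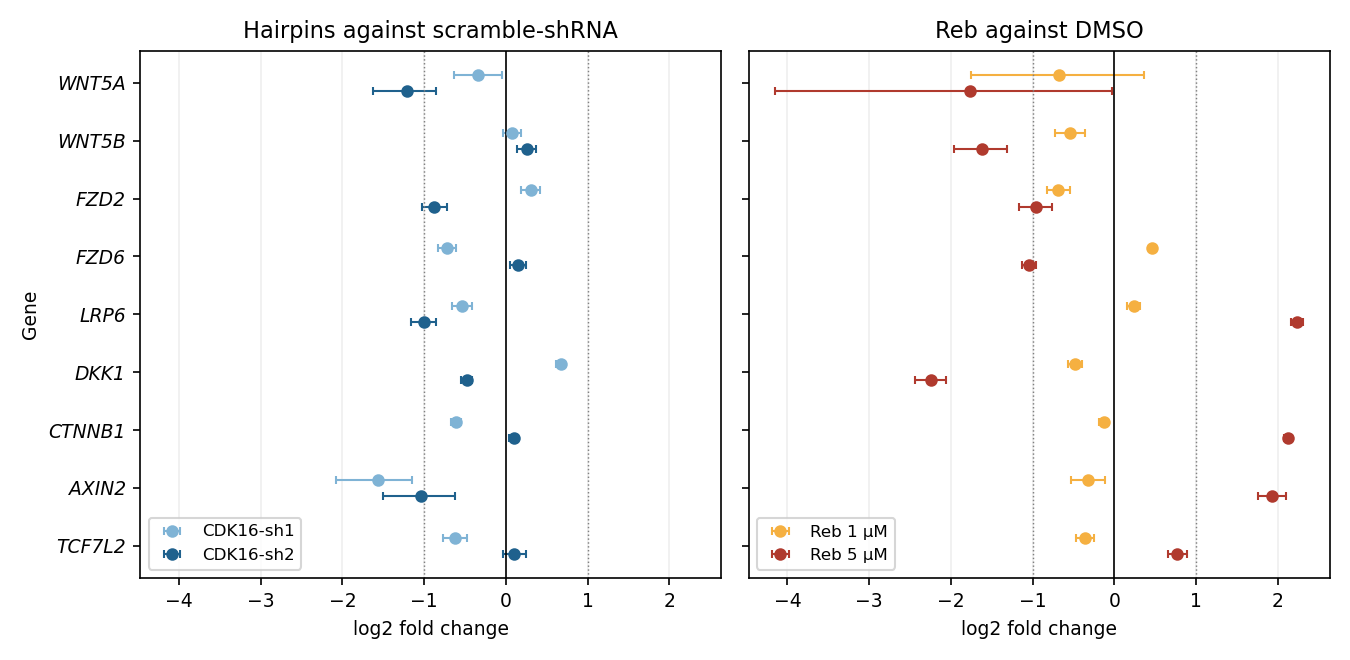
Log2 fold change of the 9 Wnt genes with each hairpin against scramble-shRNA (left) and each dose of Reb against DMSO (right). Points are single libraries, bars 95% exact counting intervals, and dotted lines mark 2-fold. AXIN2 lies below the 2-fold line with both hairpins and at 1.92 at 5 μM Reb. The Reb values of WNT5A are ratios without a prior count, from 22, 14 and 3 reads.

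Among the ligands, WNT5A, which drives migration through β-catenin-independent branches in many cell types, had 205 reads in scramble-shRNA, 196 in CDK16-sh1 and 81 in CDK16-sh2, or 7.53, 5.94 and 3.20 scaled CPM. It was lowest in CDK16-sh2. CDK16-sh1 differed from the control by -0.34 on the log2 scale (95% counting interval -0.63 to -0.05), which turned to 0.06 once a trend on GC content and length was removed, and CDK16-sh2 by -1.22 (-1.62 to -0.85). In the Reb experiment the gene was close to the counting limit, at 22 reads in DMSO, 14 at 1 μM and 3 at 5 μM, and fell under the minimum mean CPM of 1. The ratio of 5 μM to DMSO was -1.77 on the log2 scale (-4.15 to -0.03), and that of 1 μM to DMSO -0.68 (-1.76 to 0.36), so the latter was not detectable at this depth. WNT5A is encoded at chr3:55465715-55490539 on the minus strand of GRCh38.

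WNT5B, a close relative of WNT5A, is at chr12:1529891-1647243 on the plus strand. Its scaled CPM was 43.1 in scramble-shRNA, 45.5 in CDK16-sh1 and 51.5 in CDK16-sh2, a narrow range. The log2 fold changes were 0.08 (-0.03 to 0.19, and -0.21 with the GC and length trend removed) and 0.26 (0.14 to 0.37). Under Reb the gene was lower at each dose, going from 10.4 scaled CPM in DMSO to 7.17 at 1 μM and 3.36 at 5 μM. The log2 fold change was -0.54 (-0.72 to -0.36) at 1 μM and -1.62 (-1.97 to -1.31) at 5 μM, with 91 reads behind the last library. With the GC and length trend removed, the value at 5 μM was -0.92, under 2-fold.

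Among the receptors, FZD2, a Frizzled receptor to which WNT5A binds, is at chr17:44557459-44559570 on the plus strand. It stood at 40.0 scaled CPM in scramble-shRNA, 49.3 in CDK16-sh1 and 21.8 in CDK16-sh2. The hairpins thus lay on either side of the control, at 0.30 (0.19 to 0.41, and -0.30 with the GC and length trend removed) and -0.87 (-1.03 to -0.73) on the log2 scale. CDK16-sh2 was lower than CDK16-sh1 directly by 1.18 on the log2 scale (-1.32 to -1.04 as a difference). Under Reb, FZD2 was at 18.8, 11.7 and 9.61 scaled CPM in DMSO, 1 μM and 5 μM. Both doses were below DMSO, by -0.69 (-0.83 to -0.55) and -0.96 (-1.17 to -0.77), the second just inside 2-fold. With the GC and length trend removed these were -0.42 and -0.67. FZD2 passed 2-fold by library totals and by RPKM in CDK16-sh2 (-1.07 and -1.06) and at 5 μM (-1.65 and -1.63), and at 5 μM also with no filter on low counts (-1.17).

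FZD6, a Frizzled receptor known for planar polarity in skin and hair, is at chr8:103298433-103332866 on the plus strand. Its scaled CPM was 62.4 in scramble-shRNA, 37.9 in CDK16-sh1 and 69.3 in CDK16-sh2. CDK16-sh1 was thus the low library, with a log2 fold change of -0.72 (-0.83 to -0.61, and -0.36 with the GC and length trend removed), against 0.15 (0.06 to 0.25) with CDK16-sh2, which turned to -0.04 when scaled by library totals or taken from RPKM. Under Reb it went up and then down, from 111 scaled CPM in DMSO to 154 at 1 μM and 53.9 at 5 μM. The log2 fold changes were 0.47 (0.42 to 0.51) and -1.04 (-1.13 to -0.96), the latter with an interval that spans 2-fold and a value of -0.98 with DESeq2 size factors. An antisense gene, BAALC-AS1, shares 138 exon bases with FZD6 and had at most 55 reads in any library, against at least 1250 for FZD6.

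LRP6, the co-receptor of the β-catenin branch, is at chr12:12116025-12267012 on the minus strand. It was at 43.5 scaled CPM in scramble-shRNA, 29.9 in CDK16-sh1 and 21.6 in CDK16-sh2, so both hairpin lines were below the control. The log2 fold change was -0.54 (-0.66 to -0.42) and -1.01 (-1.16 to -0.86). With the GC and length trend removed these were -0.02 and -0.73, neither past 2-fold. Under Reb the direction was the opposite, with 37.8 scaled CPM in DMSO, 44.4 at 1 μM and 178 at 5 μM. LRP6 was 4.71-fold higher at 5 μM, a log2 fold change of 2.24 (2.16 to 2.31), against 0.23 (0.15 to 0.32) at 1 μM. Scaled by library totals, the value at 5 μM was 1.55, still past 2-fold.

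DKK1, which blocks signalling by binding LRP5 and LRP6, and whose promoter is printed above, is at chr10:52314296-52318042 on the plus strand. Its scaled CPM was 153 in scramble-shRNA, 243 in CDK16-sh1 and 109 in CDK16-sh2. CDK16-sh1 was thus above the control and CDK16-sh2 below it, at 0.67 (0.61 to 0.72) and -0.48 (-0.55 to -0.41) on the log2 scale. The direct ratio of CDK16-sh2 to CDK16-sh1 was -1.15 (-1.21 to -1.09), 2.22-fold lower. Under Reb, DKK1 stood at 44.0 scaled CPM in DMSO, 31.6 at 1 μM and 9.24 at 5 μM. It was lower at both doses, by -0.48 (-0.57 to -0.39) and, at 5 μM, by -2.25 (-2.44 to -2.06), or 4.74-fold. Its value at 5 μM lay between -2.93 and -2.18 under the other settings, all past 2-fold.

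CTNNB1 encodes β-catenin, the pathway's transcriptional co-activator and a part of cell junctions, at chr3:41194837-41260096 on the plus strand. It was at 181 scaled CPM in scramble-shRNA, 119 in CDK16-sh1 and 193 in CDK16-sh2. CDK16-sh1 was the low library, at -0.61 (-0.67 to -0.55, and -0.27 with the GC and length trend removed) on the log2 scale, while CDK16-sh2 was at 0.10 (0.04 to 0.15), or -0.10 when scaled by library totals or taken from RPKM. Under Reb it was at 102 scaled CPM in DMSO, 93.0 at 1 μM and 443 at 5 μM. The 1 μM library was close to DMSO, at -0.13 (-0.18 to -0.08), and the 5 μM library was 4.35-fold higher, at 2.12 (2.08 to 2.17), or 1.43 when scaled by library totals. RNA level does not give the level of β-catenin protein, which the pathway controls mainly by breakdown.

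AXIN2, a scaffold of the destruction complex and a widely used feedback target of β-catenin, is at chr17:65528563-65561647 on the minus strand. It had 141 reads in scramble-shRNA, 56 in CDK16-sh1 and 63 in CDK16-sh2, or 5.18, 1.70 and 2.49 scaled CPM. Both hairpin lines were below the control, at -1.57 (-2.08 to -1.15) and -1.04 (-1.51 to -0.62) on the log2 scale. The second interval spans 2-fold, and the hairpins differed directly by 0.54 (0.01 to 1.10). Under Reb the gene had 429 reads in DMSO, 349 at 1 μM and 757 at 5 μM, or 7.36, 5.89 and 27.98 scaled CPM. It was slightly lower at 1 μM, at -0.32 (-0.53 to -0.11), and 3.79-fold higher at 5 μM, at 1.92 (1.76 to 2.10). The gene CTD-2535L24.2 shares 1316 exon bases with AXIN2 on the same strand. How reads in these bases were assigned is not given in the sources used here, and the AXIN2 counts could lack some of them. CTD-2535L24.2 had 41, 32 and 19 reads in the knockdown libraries and 150, 141 and 313 in the Reb libraries, lower or higher in the same libraries as AXIN2.

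TCF7L2, the TCF factor that carries β-catenin on DNA in many epithelia, is at chr10:112950250-113167678 on the plus strand. Its scaled CPM was 30.6 in scramble-shRNA, 19.9 in CDK16-sh1 and 32.8 in CDK16-sh2. The log2 fold change was -0.62 (-0.77 to -0.47, and -0.36 with the GC and length trend removed) with CDK16-sh1 and 0.10 (-0.04 to 0.24) with CDK16-sh2, the latter -0.10 or -0.09 when scaled by library totals or taken from RPKM. Under Reb it was at 25.6, 19.9 and 43.7 scaled CPM in DMSO, 1 μM and 5 μM. It was below DMSO at 1 μM, at -0.36 (-0.48 to -0.25), and above it at 5 μM, at 0.77 (0.66 to 0.88), which became 0.08 when scaled by library totals. The opposite-strand gene RP11-57H14.2 shares 300 exon bases with it and had at most 173 reads, and whether the counting used strand is not given in the sources used here.

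The scaling mattered most at 5 μM. There, library totals moved the median log2 fold change of all genes by -0.69 and RPKM by -0.68 from their TMM values, and in CDK16-sh2 they moved it by -0.20 and -0.19. At 5 μM with TMM, LRP6, CTNNB1, AXIN2 and TCF7L2 were above the all-gene median and DKK1, WNT5B, FZD6 and FZD2 below it. Library totals shift each gene by nearly the same amount, so its side of that median could not change with them. GC content touched CDK16-sh1 most, where fold changes across genes followed it with r = 0.478, against 0.131 in CDK16-sh2, -0.305 at 1 μM and -0.217 at 5 μM. These r values are across 12940 or 13202 genes of the same libraries, which are not independent replicates. With the GC and length trend removed at 1 μM, FZD2 (-0.42), FZD6 (0.30), LRP6 (0.12) and CTNNB1 (-0.23) left their counting intervals. The other members stayed within theirs at that dose.

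**Figure D3:**
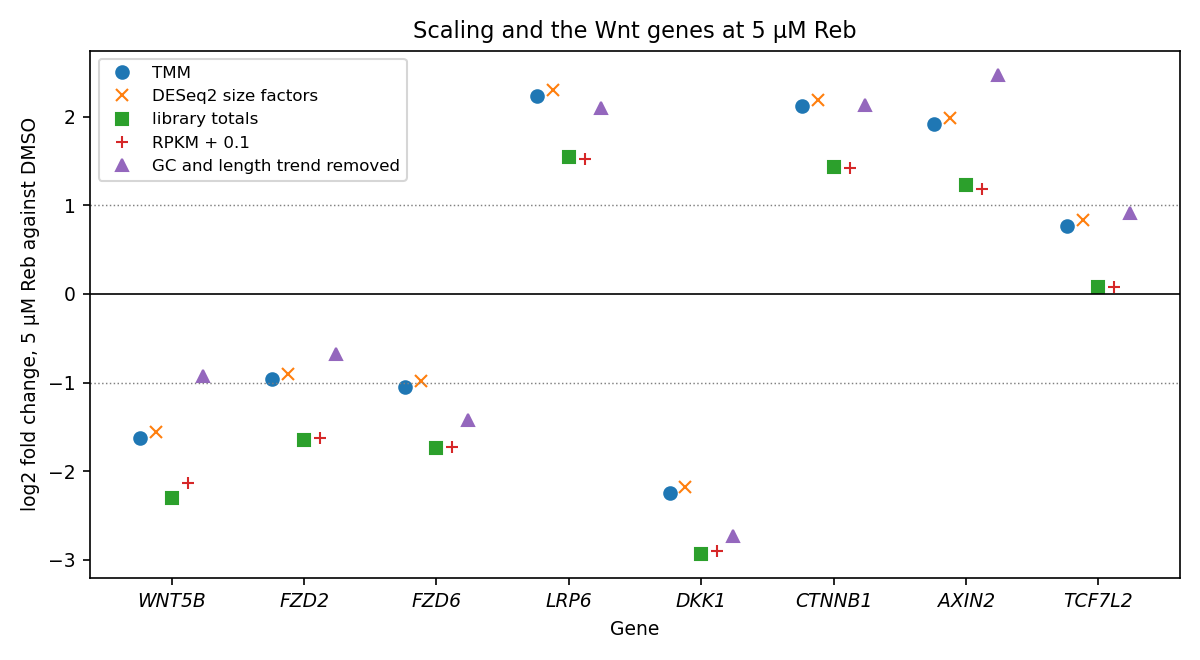
Log2 fold change at 5 μM Reb against DMSO of the 8 Wnt genes with enough reads, under 5 ways of processing. Dotted lines mark 2-fold. LRP6, CTNNB1 and AXIN2 are above the upper line and DKK1 below the lower line in all 5, while TCF7L2 ranges from 0.08 to 0.91.

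With 1 library per condition, the test took both treated libraries of an experiment as 1 group, which leaves 1 residual degree of freedom. With both hairpins as 1 group, edgeR's quasi-likelihood test called 0 of 15295 genes (0%), with 382 at an unadjusted p under 0.05, and DESeq2 called 0, with 233. AXIN2 had the smallest p of the members, 0.0619 unadjusted and 1 after Benjamini-Hochberg adjustment, with a log2 fold change of -1.31 and both lines lower. LRP6 came next in edgeR, at -0.76 and an unadjusted p of 0.154. With both doses as 1 group, 12 genes were called (0.0767%), none of them a member, and the smallest unadjusted p of a member was 0.228, for LRP6. A difference between the 2 hairpins, or between the 2 doses, counts as spread in this test. An alternative for Reb took dose as a linear term, log2(dose + 1), over the same 3 libraries. It also left 1 residual degree of freedom. It called 4 of the 8 members with enough reads, among 3832 of 15655 genes. These were LRP6, CTNNB1, DKK1 and AXIN2, with slopes of 0.90, 0.86, -0.89 and 0.79 per unit of log2(dose + 1). CTNNB1 and AXIN2 were below DMSO at 1 μM and above it at 5 μM. With 1 library per dose, this fit does not measure the spread between cultures.

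The rest of the pathway was taken from lists by role, with 2-fold as the threshold again. Some genes stand in more than 1 list, as TCF7 and LEF1 do among the nuclear partners and the β-catenin targets. The counts of different lists are therefore not separate observations. The most abundant gene of a list is the one with the highest mean RPKM over the 2 control libraries. The counts stand beside the shares of all genes given above, 6.86% lower with CDK16-sh1, 7.62% lower with CDK16-sh2, and 27.2% lower and 23.6% higher at 5 μM. Of 4 further ligands with enough reads, 0 were lower with CDK16-sh1 and 1 with CDK16-sh2, and at 5 μM 2 were lower and 1 higher. WNT7B, the most abundant of them by this mean though not in DMSO, where WNT3 was higher (1.31 against 0.425 RPKM), was at -0.997 and -0.68 with the hairpins and at -1.09 with 23 reads at 5 μM. Of 9 further receptors, 0 and 3 were lower with the hairpins, and at 5 μM 3 were lower and 2 higher, near the shares of all genes. PTK7, a pseudokinase co-receptor, was the most abundant and stood at 1.20 at 5 μM, or 0.51 when scaled by library totals. LGR4, an R-spondin receptor that protects Frizzled receptors from turnover, was at -1.54 and -0.92 with the hairpins and at 0.43 and 0.90 under Reb. Its RPKM was 3.31 in DMSO and 3.84 at 5 μM, a smaller difference. KREMEN2, a receptor for DKK proteins, had at most 125 reads in any library.

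Inside the cell, 8 genes of ligand processing and release stood at a median of 1.27 on the log2 scale at 5 μM, where 4 were 2-fold higher and 0 lower and the all-gene median was -0.07. TMED2, a cargo receptor of the secretory pathway, was the most abundant of them, at 1.59 (0.90 when scaled by library totals). Of 16 genes of Dishevelled and the destruction complex, 2 and 0 were lower with the hairpins, and at 5 μM 3 were lower and 3 higher. DVL1, a Dishevelled adaptor, was the most abundant, at -1.73 at 5 μM. Of 13 nuclear partners, 0 and 2 were lower with the hairpins, and at 5 μM 6 were lower and 3 higher. The 2 lower with CDK16-sh2 were LEF1 and TCF7, both also listed as β-catenin targets, and TCF7 was among the 6 lower at 5 μM. BCL9L, which links β-catenin to PYGO proteins, was at -0.78 at 1 μM and -2.59 at 5 μM, falling from 27872 reads in DMSO to 16481 and 2140. The partners' median at 5 μM was -0.86.

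Among the listed β-catenin targets with enough reads, 0 of 16 were lower and 3 higher with CDK16-sh1, and 7 were lower and 2 higher with CDK16-sh2. Of all genes, 6.86% and 4.33% were lower and higher with CDK16-sh1, and 7.62% and 2.20% with CDK16-sh2. MYC, a growth-driving transcription factor, and FOSL1, a component of AP-1, were past 2-fold with both hairpins. MYC had 2853, 11280 and 6340 reads in scramble-shRNA, CDK16-sh1 and CDK16-sh2, or 1.71 and 1.26 on the log2 scale. FOSL1 was at 1.17 and 1.32, the first being 0.66 with the GC and length trend removed. AXIN2, lower with both hairpins, thus stood on the other side from these 2 listed targets. Other listed targets lay on the side of AXIN2, as 6 of the 16 were below 0 with CDK16-sh1 and 10 of 16 with CDK16-sh2. At 5 μM Reb, 6 of 18 targets were lower and 4 higher, with a median of -0.58, and MYC was at -0.80 at 1 μM and 1.38 at 5 μM. By RPKM, MYC went from 32.8 in DMSO to 52.9 at 5 μM, under 2-fold.

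Further feedback targets and factors, chosen after their values were seen, are given beside AXIN2 as a description. NKD1, an inhibitor that binds Dishevelled, had 338 reads in DMSO and 28 at 5 μM, a log2 fold change of -2.44. SP5, a target factor that dampens the response, went from 140 to 20 reads and TCF7 from 504 to 74, both at -1.65. ZNRF3, a ligase that removes Frizzled receptors, went from 266 to 413 reads, at 1.73, on the same side as AXIN2. Its relative RNF43 was at -0.83 and the factor LEF1 at 0.12, the latter being -0.57 when scaled by library totals. With CDK16-sh2, LEF1 (-1.44), SP5 (-1.59) and TCF7 (-1.32) were past 2-fold lower, and ZNRF3 was at 0.29. With CDK16-sh1, LEF1 was at 0.13, SP5 at 0.26 (-0.37 with the GC and length trend removed), TCF7 at -0.24 and ZNRF3 at 0.43, none past 2-fold. NKD1 and RNF43 had too few reads in the knockdown libraries.

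In the planar polarity and calcium branch, 2 of 20 genes were lower with CDK16-sh1 and 3 with CDK16-sh2, and at 5 μM 6 were lower and 6 higher, near the 27.2% and 23.6% of all genes. ROCK1 and ROCK2, kinases downstream of RHOA that act on the cytoskeleton, were past 2-fold lower with both hairpins. ROCK1 was at -1.14 and -1.12 and ROCK2 at -1.37 and -1.92. With the GC and length trend removed, ROCK1 was at -0.62 and -0.84 and ROCK2 at -0.85 and -1.64, so 1 of these 4 values, ROCK2 with CDK16-sh2, was past 2-fold. RHOA, the most abundant gene of the list by the mean of both controls, though below RAC1 in DMSO (68.3 against 89.3 RPKM), was at 2.18 at 5 μM.

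**Figure D4:**
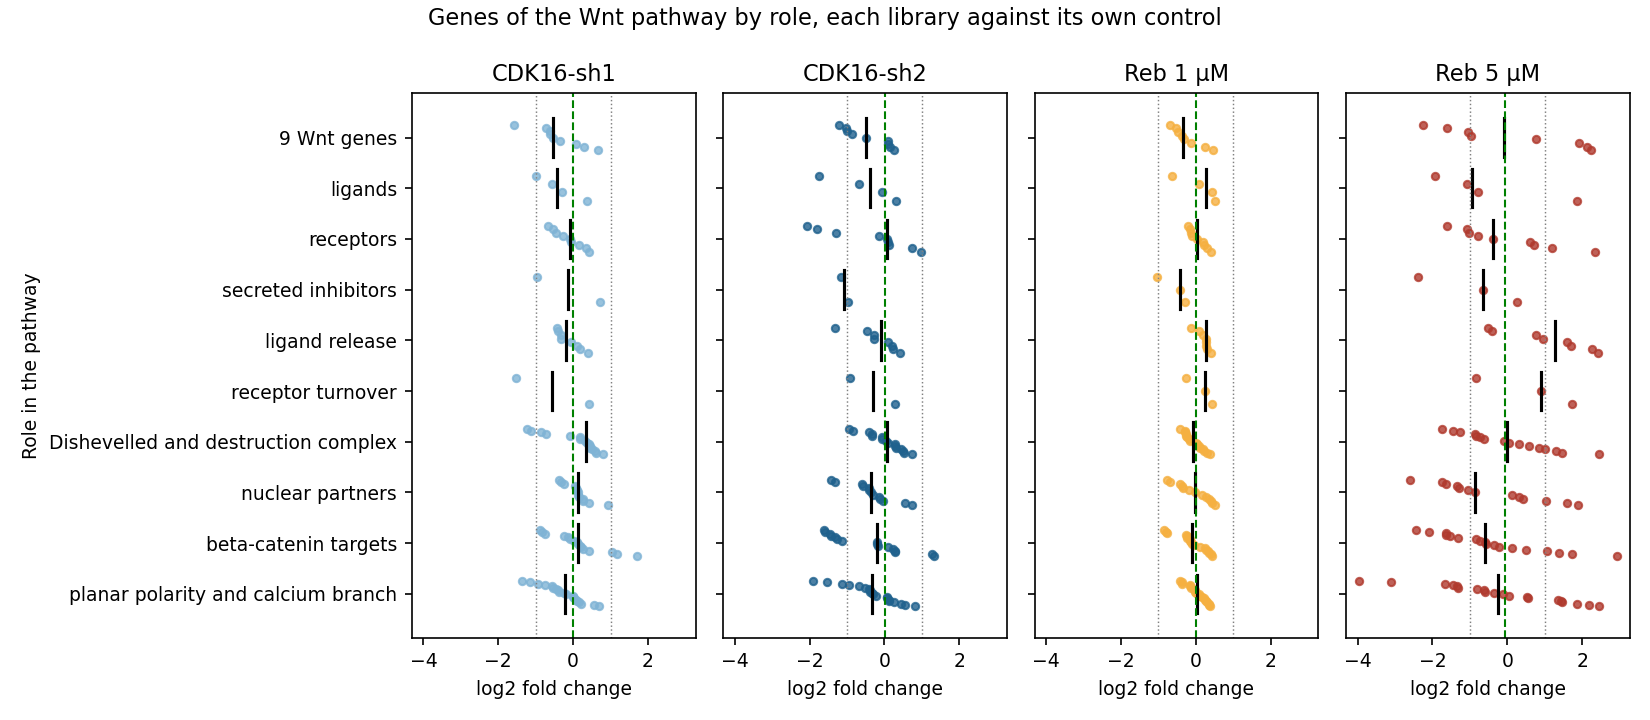
Log2 fold change of the 9 Wnt genes and of the other genes of the pathway by role, in the 4 treated libraries. Each point is 1 gene with enough reads, black bars are list medians, dashed green lines the median of all genes, and dotted lines 2-fold. At 5 μM the median of the ligand release genes lies right of the all-gene median, at 1.27, with 2 of 8 genes below 0. The median of the nuclear partners lies left of it, at -0.86, with 7 of 13 genes below 0.

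The genes whose pattern over the 4 treated libraries was nearest to a member's, by Euclidean distance among 8388 genes, were found for LRP6 and DKK1. These had the largest mean absolute log2 fold change (1.00 and 0.968) of the members with a mean CPM of at least 10 in both experiments, a limit that left out AXIN2. For LRP6 they were NUAK1 (distance 0.0594), MAPRE2 (0.249) and PPP2CB (0.261). NUAK1 was at -0.57, -0.97, 0.27 and 2.25 in CDK16-sh1, CDK16-sh2, 1 μM and 5 μM. For DKK1 they were ASCC2 (0.222), ERF (0.372) and C19orf48 (0.379). The 4 values share 2 control libraries, so this likeness is a description.

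The control libraries of the 2 experiments differed too, in tables from separate experiments with no test. Over the 15782 genes measured in both, 25.4% lay past 2-fold between DMSO and scramble-shRNA, and 4 of 9 members did. WNT5A was 15.2-fold lower in DMSO than in scramble-shRNA, WNT5B 3.48-fold and DKK1 2.93-fold lower, and FZD6 was 2.11-fold higher. LRP6 (0.04) and TCF7L2 (-0.01) lay closest to 0 on the log2 scale. For WNT5A, WNT5B, DKK1 and FZD6 the difference between controls was larger than with either hairpin. Against 5 μM Reb, the control difference of FZD6 (1.08, 1.00 to 1.16) overlapped the size of its change. That of WNT5B (-1.80) was larger than its change of -1.62, both with TMM. By library totals the change of WNT5B was -2.30, a scaling not applied to the control difference. For WNT5A the control difference (-3.92) was also larger than the change at 5 μM (-1.46 with the prior count), which rests on 22 and 3 reads.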

How the data were processed

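The authors sequenced RNA from MDA-MB-231 cells in 6 libraries, and the deposited tables hold raw read counts and RPKM per gene symbol. The submitters' notes name Trimmomatic, featureCounts, Subread 1.5.1 and GRCh38, while the aligner settings are not given in the sources used here. RPKM values are the authors' own. The members and role lists were chosen with earlier results of these data known.

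Counts were scaled with TMM over the 3 libraries of each experiment (edgeR 4.0.16, R 4.3.3), genes with a mean CPM of at least 1 were kept, and log2 fold changes used a prior count of 2. Intervals are 95% exact Clopper-Pearson intervals of the 2-library share. The quasi-likelihood test took both treated libraries as 1 group, with Benjamini-Hochberg adjusted p at most 0.05 and 2-fold required. The script was tested on simulated data. Alternatives were DESeq2 1.42.0, library totals, the RPKM with 0.1 added, no filter, a prior count of 0.5, 1.5-fold, a trend on length and expression, dose as a linear term and, chosen after seeing the data, a trend on GC content and length. Named genes were all members, the targeted gene, genes overlapping a member, genes past 2-fold the same way in both treated libraries of an experiment, the gene of each list with the highest mean RPKM over both controls and those nearest in pattern to 2 members (mean CPM of at least 10). Other feedback targets, WNT3, RAC1, WLS, PORCN, TMED5, TMED10 and VPS26A were named after their values were seen. Columns of other samples came to 0. Promoters came from RefSeq on GRCh38.p14.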

Additional observations from a re-analysis of the deposited data

Results flagged for a closer look

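Several members moved in opposite directions in the 2 treated libraries of an experiment, each beyond counting error in both. With 1 library per condition, these differences were not tested. In the knockdown, DKK1 was at 0.67 with CDK16-sh1 and -0.48 with CDK16-sh2, FZD2 at 0.30 and -0.87, FZD6 at -0.72 and 0.15, and CTNNB1 at -0.61 and 0.10. These are log2 fold changes against scramble-shRNA, and the values of FZD2 with CDK16-sh1 and of FZD6 and CTNNB1 with CDK16-sh2 changed sign under another setting. Under Reb, FZD6 was at 0.47 at 1 μM and -1.04 at 5 μM, CTNNB1 at -0.13 and 2.12, TCF7L2 at -0.36 and 0.77, and AXIN2 at -0.32 and 1.92, as log2 fold changes against DMSO.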

How the results depend on the processing

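Of 252 recomputed log2 fold changes (36 results), 177 stayed within the counting interval, 75 moved outside it. Among 238 for members with enough reads, 6 calls at 2-fold were lost, 5 were gained, and 9 values changed sign, 0 of them past 2-fold. At 1.5-fold, 4 members were lower and 1 higher with CDK16-sh1, and 1 was lower at 1 μM Reb. With the length and expression trend removed, 0 were lower with CDK16-sh2. With no filter on low counts, 5 were lower at 5 μM, WNT5A and FZD2 being added. At 1.5-fold, with that trend removed or with no filter, the share of all genes past the threshold was not computed. These counts alone thus do not set the members apart. With dose as a linear term on log2(dose + 1), 4 of the 8 members with enough reads were called, LRP6, CTNNB1, DKK1 and AXIN2. Of 15655 genes, 3832 were called in the same fit (1744 lower, 2088 higher), which had 1 library per dose. The cause of these changes was not tested. Genes called for Reb came to 12, against 17 by DESeq2, 3 with no filter and 0 with library totals. For the hairpins the count was 0 under each of edgeR, DESeq2, library totals and no filter. WNT5A had at most 22 reads in the Reb libraries, so its ratios there have wide intervals. With counting intervals alone, no spread between cultures is measured.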
